A study of Macaca mulatta with 22 samples.

Results

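The DLG and DLGAP genes encode scaffold proteins of the postsynaptic density, and their m6A peaks were examined in prefrontal cortex taken from infant rhesus macaques (Macaca mulatta). The 8 members were DLG1, DLG2, DLG3, DLG4, DLGAP1, DLGAP2, DLGAP3 and DLGAP4. They were chosen by gene name, with earlier results of these lists known. Every peak that had been called in their Ensembl genes was taken from the 11 peak lists. Of the 8 members 5 had at least 1 peak, 19 of the 10069 peaks in all, and they are 5 of the 3671 genes with a peak. DLG1, DLGAP2 and DLGAP4 had none in any animal.

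N6-methyladenosine (m6A) is a modified adenosine found inside many mRNAs, where it often lies near the stop codon and in the 3' UTR and is read by proteins that act on splicing, translation and decay. m6A-seq captures RNA fragments with an antibody to the mark and calls the enriched stretches as peaks. DLG proteins are membrane-associated guanylate kinases. Their PDZ domains hold the tails of NMDA receptors, potassium channels and neuroligins, and their guanylate kinase-like domain binds DLGAP proteins, which in turn bind SHANK scaffolds. The family thereby ties glutamate receptors of excitatory synapses to the layers beneath them, and its members replace one another in part as the cortex matures.

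All animals were at postnatal day 35. The sevoflurane group held 5 animals, the males D and S1 and the females F, S2 and S3, which had inhaled about 2.5 to 3% of this general anaesthetic for 4 h at about postnatal days 7, 21 and 35. The control group held 6 animals, the males A and B and the females C, C1, C2 and C3. Their labels give no agent or carrier gas. Each animal had 1 immunoprecipitated library with its own peak list, and the 11 input libraries were not analysed here. A peak is therefore not an RNA level: more of a transcript and more methylation of it cannot be told apart in these lists. In bulk tissue, fewer cells of a type and less RNA per cell cannot be told apart either.

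List length moved with the groups. The lists held 1146, 1178, 852, 1673 and 1236 peaks in the sevoflurane animals D, F, S1, S2 and S3, against 601, 535, 483, 452, 703 and 1210 in the controls A, B, C, C1, C2 and C3. The control C3 lay among the sevoflurane animals and apart from the other controls, so the values it moves most are also given without it. Read totals are not part of the lists, so the depth is unknown, and the number of animals sets the precision. Of the neuron markers, SYP and NEFM had a peak in 5 of 5 sevoflurane and 6 of 6 control animals, RBFOX3 in 3 and 4, SYT1 in 0 and 2 and NEFL in 1 and 0. The 2 of these that entered the test, RBFOX3 and SYT1, were both lower after sevoflurane, by a median of -20 percentage points, and neither passed it (Fisher's exact p = 1.0 and 0.455). Of 12 neuron markers, 2.8 ± 0.837 per sevoflurane animal (SD, n = 5) and 3.0 ± 0.894 per control animal (SD, n = 6) had a peak. Peaks were few in astrocyte markers (2 of 7 genes in any animal), oligodendrocyte markers (3 of 7, of which 5 are in the tables of gene names), microglia markers (1 of 7) and endothelium markers (0 of 4).

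Members with a peak were more numerous in the sevoflurane animals. The numbers were 3, 1, 4, 3 and 1 in the sevoflurane animals D, F, S1, S2 and S3, against 1, 1, 1, 0, 1 and 2 in the controls A, B, C, C1, C2 and C3. That is 2.4 ± 1.34 members per sevoflurane animal (SD, n = 5) and 1.0 ± 0.632 per control animal (SD, n = 6), a difference of 1.4. Without C3 the controls had 0.8 ± 0.447 (SD, n = 5), and the difference was 1.6. The groups overlap, since F and S3 had a single member with a peak, as 4 controls had. No test was made of this count, because the members were picked with earlier results of these lists known.

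The count was also set against list size. The family made up 0.302, 0.0974, 0.545, 0.222 and 0.09% of the genes that carried a peak in the sevoflurane animals D, F, S1, S2 and S3, against 0.179, 0.201, 0.222, 0, 0.156 and 0.19% in the controls A, B, C, C1, C2 and C3. The sevoflurane mean of 0.251 ± 0.187% (SD, n = 5) and the control mean of 0.158 ± 0.0805% (SD, n = 6) differ by less than the SD of the sevoflurane animals, and F and S3 fell below 5 of the 6 controls. With only the 452 lowest p-values kept per list, the length of the shortest, 0.8 members per sevoflurane animal and 0.667 per control animal were left, a difference of 0.133. The part of list length in the difference of 1.4 was not tested.

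**Figure D1:**
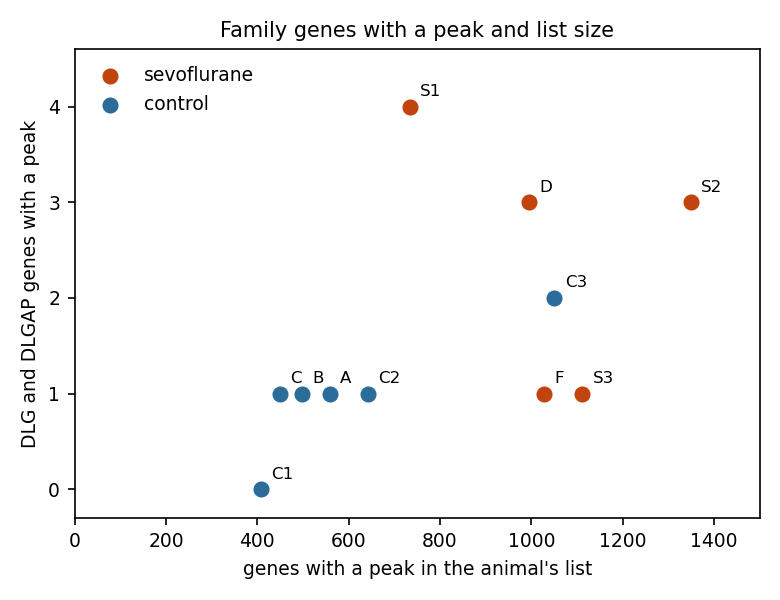
Number of DLG and DLGAP genes with a peak in each animal (vertical axis) against all genes with a peak in its list (horizontal axis), sevoflurane in orange and control in blue. S1 had 4 members on the shortest sevoflurane list, while F and S3 had 1 each on lists of 1027 and 1111 genes.

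By member, DLG3, DLG4 and DLGAP3 had peaks in sevoflurane animals alone, DLG2 in a control alone and DLGAP1 in both groups. The sevoflurane lists also held more genes with a peak, a mean of 1043 per animal against 601 in controls. How many of all genes had peaks in a single group was not counted, so whether the family's split is unusual was not tested. DLG3 had a peak in 5 of 5 sevoflurane and 0 of 6 control animals, and DLGAP3 in 3 of 5 and 0 of 6. DLGAP1 had one in 3 of 5 sevoflurane and 5 of 6 control animals. DLG4 had a peak in 1 sevoflurane animal (S1) and DLG2 in 1 control (C3), and neither entered the test. Without C3, which stood apart in list length, DLG2 has no peak in any animal.

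**Figure D2:**
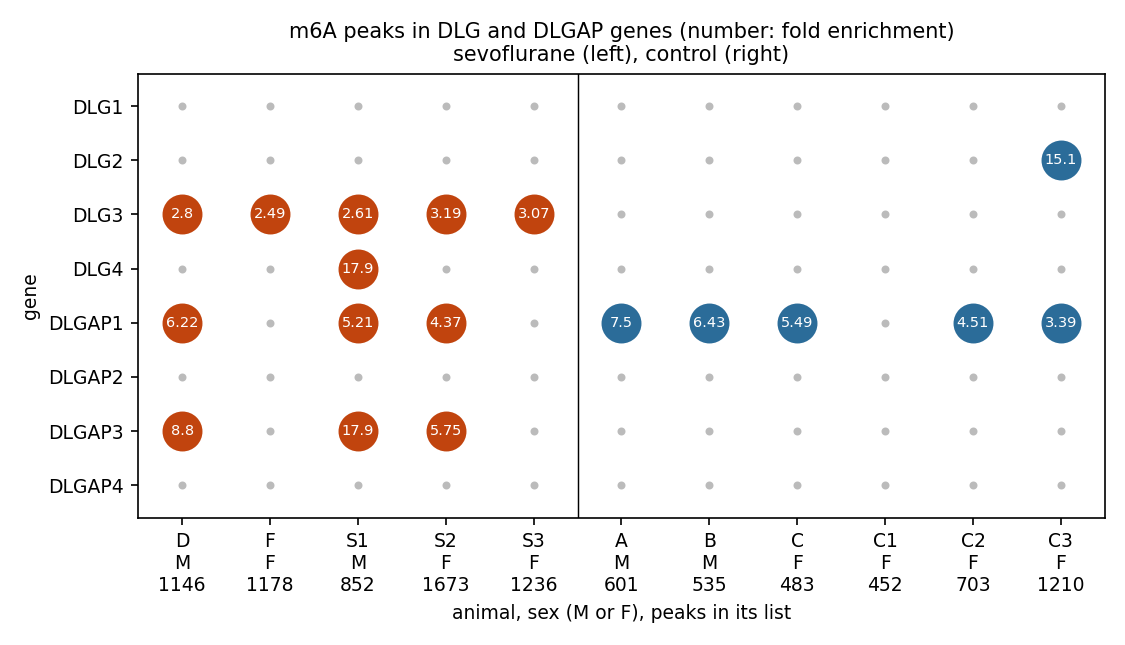
Peaks in the 8 members (rows) by animal (columns), sevoflurane left of the line and control right of it. A filled circle is a peak with the authors' fold enrichment of the strongest one, a grey dot is none, and the labels give sex (M or F) and the number of peaks in the list. The DLG3 row is filled in all 5 sevoflurane animals and in 0 of 6 controls.

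Genes with a peak in 2 to 9 of the 11 animals were compared between the groups with two-sided Fisher's exact tests, 1486 genes in all. At an unadjusted p under 0.05, a peak was commoner after sevoflurane for 1.82% of these genes (27) and commoner in controls for 0% (0). Of the family 3 members entered the test and 1, DLG3, was among the 27. No gene had an adjusted p under 0.05 (Fisher's exact test with Benjamini-Hochberg adjustment, smallest adjusted p = 0.606), and 4 genes reached the smallest p that groups of 5 and 6 allow. The median difference in the share of animals over the 1486 genes was itself 23.3 percentage points toward sevoflurane, with 1236 genes higher there and 250 lower. Of the 3 tested members 2 were higher and 1 lower, with a median of 60 percentage points.

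Of the DLG subfamily, only DLG3 had peaks in enough animals to enter the test. DLG3 (ENSMMUG00000013948) encodes SAP102, a scaffold that binds NMDA receptors and in rodents is abundant early in postnatal life. The gene lies on the plus strand of chromosome X from 65122293 to 65291025 (rheMac8 assembly), and its peaks carry the authors' class 3' UTR. Its fold enrichment, the authors' own value for each peak, was 2.8 in D, 2.49 in F, 2.61 in S1, 3.19 in S2 and 3.07 in S3. Its p-values, the authors' own too, were 2.2e-06 in D, 6.2e-05 in F, 9.3e-05 in S1, 6.2e-08 in S2 and 3.3e-06 in S3. No control list had a DLG3 peak, so the groups do not overlap in presence. Between the groups Fisher's exact test gave p = 0.00216 (adjusted p = 0.606 over 1486 genes). DLG3 was picked with earlier results of these lists known, so its unadjusted p-values are a description.

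The DLG3 peaks were low in enrichment beside the other peaks of their own lists. By fold enrichment they stood at percentile 12.4 in D, 4.07 in F, 4.23 in S1, 21.7 in S2 and 19.7 in S3. By p-value, with 1 as the strongest, they ranked 632 of 1146 in D, 1008 of 1178 in F, 790 of 852 in S1, 626 of 1673 in S2 and 555 of 1236 in S3. In all 5 sevoflurane animals DLG3 thus stood at or below percentile 21.7 by enrichment, and in F and S1 it was near the end of the list by p-value as well.

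Peaks of such enrichment were also more numerous in the sevoflurane lists, which were longer (mean 1217 peaks against 664 in controls). Their share of each list was not compared. With a fold enrichment between 2.49 and 3.19, the range of the DLG3 peaks, there were 161, 166, 88, 285 and 235 peaks in D, F, S1, S2 and S3, against 61, 61, 47, 60, 69 and 203 in the controls A, B, C, C1, C2 and C3. That is 187 ± 75.5 per sevoflurane animal (SD, n = 5) and 83.5 ± 59 per control animal (SD, n = 6), or 59.6 ± 7.92 without C3 (SD, n = 5). The control C3 had 203 such peaks and a list longer than those of D, F and S1, and it had no DLG3 peak. Peaks with a p-value at least as large as that of DLG3 in S1 numbered 63 to 261 in the sevoflurane animals, against 4 to 79 in the controls A, B, C, C1 and C2 and 183 in C3. The part of these peaks in the DLG3 difference was not tested.

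**Figure D3:**
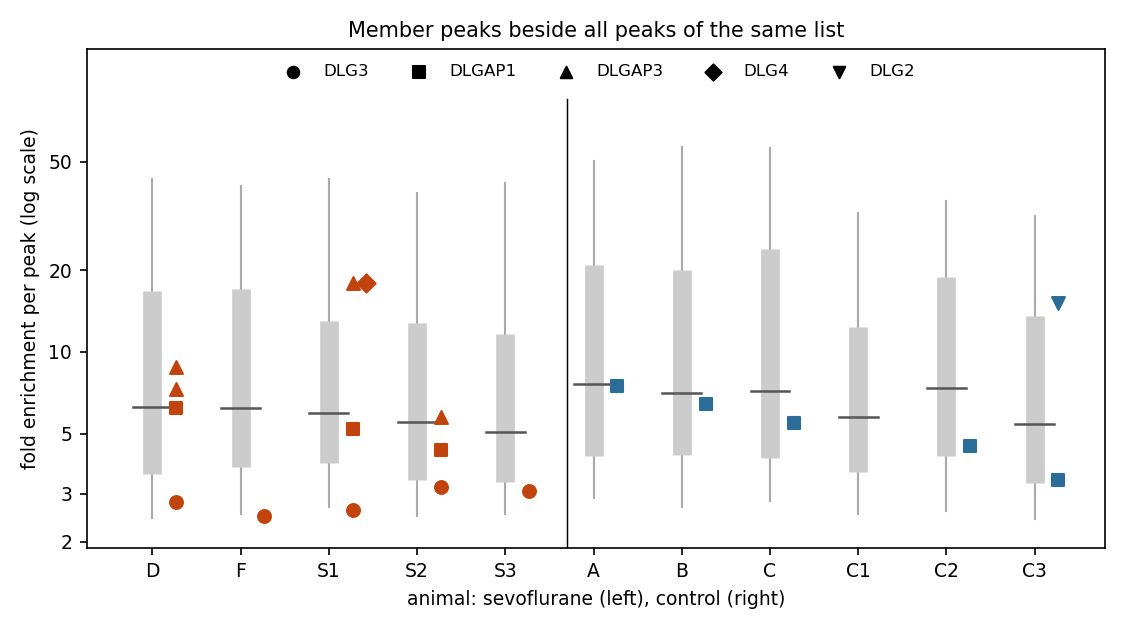
Fold enrichment of each member's peaks (symbols, log scale) beside all peaks of the same list, sevoflurane left of the line and control right of it. The grey box spans the middle 50% of peaks, the thin line runs from percentile 5 to 95 and the dark bar is the median. DLG3 lies under the box in all 5 sevoflurane animals, from 2.49 to 3.19. DLGAP1 runs from 4.37 to 6.22 in sevoflurane animals and from 3.39 to 7.5 in controls.

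Fewer DLG3 peaks were left under stricter settings. At a peak p-value of at most 1e-05, 3 of 5 sevoflurane and 0 of 6 control animals kept one (Fisher's exact p = 0.0606). The 3 were D, S2 and S3, and the S3 peak lies at another place than those of D and S2. In lists of equal length no animal had a DLG3 peak. With treatment permuted within sex the exact p for DLG3 was 0.00476, and within the animals' naming style it was 0.005. These are the smallest values that 210 and 200 relabellings allow. With a factor for each animal's odds of listing a gene the exact p was 0.0177. Without C3 the Fisher's exact p was 0.00794, the value for leaving out any 1 control and the smallest that those groups allow. All of these p-values are unadjusted, for a gene picked with earlier results of these lists known.

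By position, 4 of the 5 DLG3 peaks shared 1 place. Those of D, F, S1 and S2 overlapped in a region of 181 bp from 65288717 to 65288897, with 61 bp common to all 4, and ended 2128 to 2188 bp before the annotated 3' end of the gene, at 98.7% of its span. The peak of S3 lay from 65287458 to 65287548, 1168 bp upstream of that region and 3477 bp before the 3' end. Both stretches carry the class 3' UTR, but S3 shares no base with the other animals. The shared region was found in 4 of 5 animals after sevoflurane and 0 of 6 controls (Fisher's exact p = 0.0152, adjusted p = 0.61 over 1265 regions). Among those 1265 regions 1.5% (19) were commoner after sevoflurane by that unadjusted threshold and 0% (0) commoner in controls, and the shared DLG3 region was 1 of the 19.

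**Figure D4:**
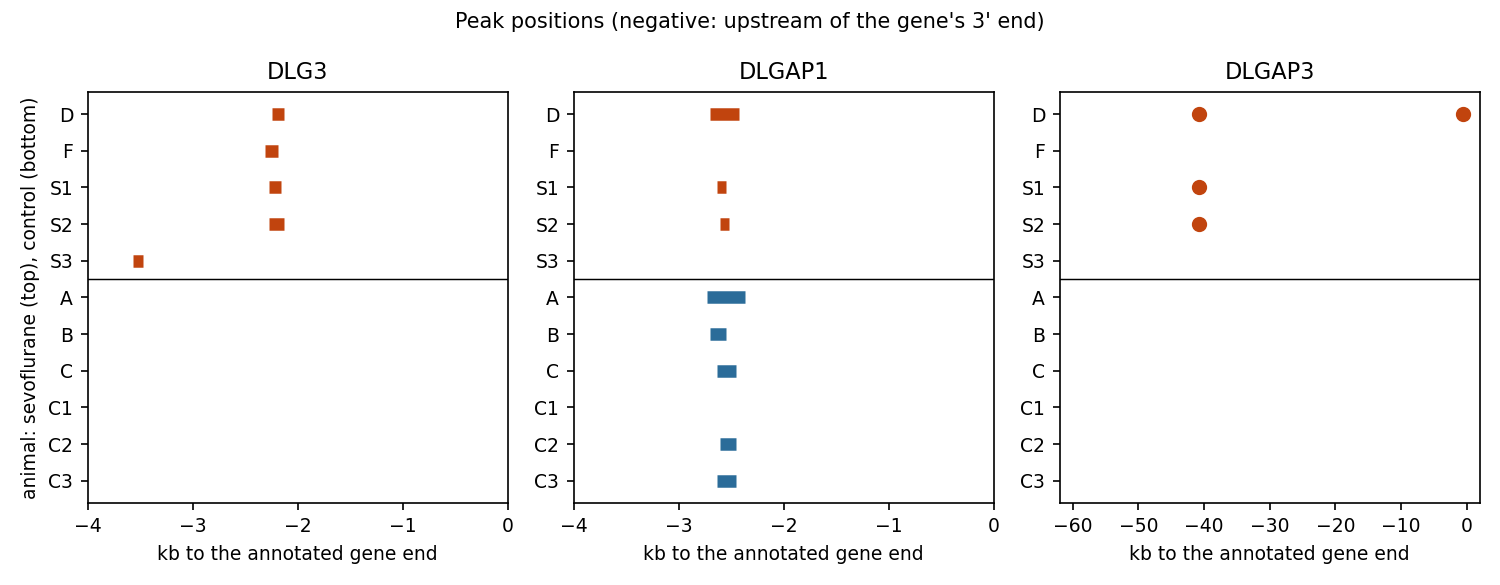
Distance of each peak of DLG3, DLGAP1 and DLGAP3 from the annotated 3' end of the gene (horizontal axis, in kb, upstream to the left), 1 row per animal with sevoflurane above the line and control below it. Bars are drawn to scale for DLG3 and DLGAP1, and dots mark peak centres for DLGAP3, whose axis is longer. The DLG3 peaks of D, F, S1 and S2 overlap, that of S3 lies upstream, and the DLGAP1 peaks of both groups share 1 place.

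DLG4 and DLG2 each had 1 peak, and both lay at the annotated start of the gene. DLG4 (ENSMMUG00000010536) encodes PSD-95, the most studied scaffold of mature excitatory synapses. Its peak in the sevoflurane animal S1 lay on the minus strand of chromosome 16 from 7193639 to 7193818, 2 bp from the annotated start. It had a fold enrichment of 17.9, percentile 80.3 of that list, and a deposited p-value of 1.6e-10, rank 125 of 852. DLG2 (ENSMMUG00000007921) encodes PSD-93, a close relative that also clusters NMDA receptors and potassium channels. Its peak in the control C3 lay on the minus strand of chromosome 14 from 76737387 to 76737477, 9 bp from the annotated start of a gene of 905984 bp. It had a fold enrichment of 15.1, percentile 76.9, but a p-value of 0.00033, rank 1170 of 1210. The DLG4 peak was thus among the firmer of its list, and that of DLG2 was high in enrichment and among the last by p-value. DLG1 (ENSMMUG00000016585), which encodes the trafficking scaffold SAP97, had 0 peaks in 5 sevoflurane and 6 control animals.

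Of the DLGAP subfamily, DLGAP1 had the most peaks and did not separate the groups. DLGAP1 (ENSMMUG00000001471) encodes GKAP, the adaptor that joins PSD-95 to SHANK proteins. Its fold enrichment was 6.22 in D, 5.21 in S1 and 4.37 in S2, against 7.5 in A, 6.43 in B, 5.49 in C, 4.51 in C2 and 3.39 in C3. The sevoflurane animals F and S3 and the control C1 had no DLGAP1 peak, and the enrichment of the sevoflurane animals lay inside the range of the controls. Without C3 the controls ran from 4.51 to 7.5, and S2 lay below them. Fisher's exact test on presence gave p = 0.545 (adjusted p = 0.901 over 1486 genes).

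In D, S1 and S2, which had both, the DLGAP1 peak ranked above that of DLG3 by p-value. The DLGAP1 p-values were 3.2e-17 in D, 2e-11 in S1 and 1.2e-08 in S2, against 2.5e-12 in A, 1.9e-08 in B, 5e-11 in C, 3.5e-07 in C2 and 6.2e-07 in C3. These were ranks 139 of 1146, 111 of 852 and 555 of 1673 in the sevoflurane animals D, S1 and S2, against 80 of 601, 147 of 535, 78 of 483, 260 of 703 and 515 of 1210 in the controls A, B, C, C2 and C3. At a p-value of at most 1e-05 all 8 animals kept the peak, and in lists of equal length 2 of 5 sevoflurane and 4 of 6 control animals did (Fisher's exact p = 0.567). The control direction of DLGAP1, with 60% of sevoflurane and 83.3% of control animals, runs against the 1236 of 1486 genes that were higher after sevoflurane, but it did not pass the test.

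All 8 DLGAP1 peaks overlapped in 1 region on the plus strand of chromosome 18 from 6002184 to 6002544, 361 bp, with 61 bp from 6002304 to 6002364 common to all. The region lies at 97.1 to 97.2% of the annotated gene, which runs from 5915554 to 6004911, although the authors' class for it is 5' UTR. In 8 of 8 animals a second, nearly identical peak is listed at the same place for another gene of the same strand without a symbol (ENSMMUG00000041910), whose annotation column names DLGAP1. From which of the overlapping genes the reads came cannot be told apart. Over all lists 3.43% of peaks (345) share a region with a peak of another gene in the same animal. Without DLGAP1 the family had 1.8 members with a peak per sevoflurane animal and 0.167 per control animal, a difference of 1.63. This setting was chosen after the data were seen. It takes out the tested member that was commoner in controls, which leaves only the DLG2 peak of C3 there.

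DLGAP3 (ENSMMUG00000004998) encodes SAPAP3, an adaptor of the same group whose loss in mice leads to compulsive grooming. The gene lies on the minus strand of chromosome 1 from 34012065 to 34073760. A region of 121 bp from 34052732 to 34052852 had a peak in D with a fold enrichment of 8.8, in S1 with 17.9 and in S2 with 5.75, and in 0 of 6 controls. The p-values were 6.5e-06 in D, 4.8e-09 in S1 and 1.5e-07 in S2, ranks 724 of 1146, 172 of 852 and 665 of 1673. By enrichment these stood at percentiles 60.9, 80.3 and 51.2 of their lists, above the DLG3 peaks of the same 3 animals.

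Presence of DLGAP3 in 3 of 5 sevoflurane and 0 of 6 control animals did not pass the test (Fisher's exact p = 0.0606, adjusted p = 0.606 over 1486 genes, and adjusted p = 0.61 over 1265 regions). Without F or without S3, which had no DLGAP3 peak, the Fisher's exact p was 0.0333. It was 0.133 without D, S1 or S2, which had the peak, and 0.167 without any 1 control. With treatment permuted within sex the exact p was 0.0714, within naming style 0.08, and with the factor for each animal's odds 0.224. All DLGAP3 peaks had a p-value of at most 1e-05, but in lists of equal length 1 of 5 sevoflurane animals kept one (Fisher's exact p = 0.455). The 3 animals with the DLGAP3 peak, D, S1 and S2, are the same 3 sevoflurane animals that had the DLGAP1 peak, while F and S3 had DLG3 alone.

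The recurrent DLGAP3 peak lay inside the gene, at 34% of its span, 40667 bp before the annotated 3' end, in the class exon. D had a second DLGAP3 peak from 34012454 to 34012633, 389 bp before the 3' end, with a fold enrichment of 7.33 and a deposited p-value of 1.1e-06. DLGAP2 (ENSMMUG00000057265) and DLGAP4 (ENSMMUG00000016448), which encode the related adaptors SAPAP2 and SAPAP4, had 0 peaks in 5 sevoflurane and 6 control animals. A missing peak says only that none was listed. It does not show that the transcript was unmethylated or absent.

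By position and shape the 19 family peaks were mostly late in the annotated gene span and short. Of the 19, 14 lay beyond 80% of the gene's span (introns included) and 2 before 20%, against 37.3% and 25% of all peaks whose called and annotated genes agreed. The 14 come from 3 genes, 8 of them from the single DLGAP1 region, so they are not 14 separate places. Those 8 carry the authors' class 5' UTR, so a late place in the span need not be the 3' end of a transcript. All 19 were a single exonic block, as were 64.1% of all peaks, and their length ran from 91 to 361 bases with a median of 121, against 150 for all peaks. The median fold enrichment of family peaks was 5.49, against 6.03 for all peaks, and spread from 2.49 for DLG3 in F to 17.9 for DLG4 and DLGAP3 in S1.

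By sex, the male sevoflurane animals D and S1 had 3 and 4 members with a peak, against 1 and 1 in the male controls A and B. The female sevoflurane animals F, S2 and S3 had 1, 3 and 1, against 1, 0, 1 and 2 in the female controls C, C1, C2 and C3. Males did not overlap between the groups and females did. The same held for all genes with a peak. The males D and S1 listed 995 and 734 genes, against 558 and 498 in A and B. In females the control C3 listed 1050 genes, above the 1027 of the sevoflurane animal F. The difference of means was 2.5 in males (2 animals a group) and 0.667 in females (3 against 4), and whether the sexes differ was not tested. DLG3, which lies on chromosome X, had a peak in both sevoflurane males and in all 3 sevoflurane females.

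The relatives and partners of the family were counted the same way. Of 16 other membrane-associated guanylate kinases and relatives 6 had a peak in any animal, 2 were tested and 0 of these passed an unadjusted p under 0.05 in either direction, against 1.82% and 0% of all genes tested. Both tested genes were higher after sevoflurane, with a median difference of 53.3 percentage points. Per animal the list numbered 1.8 ± 0.837 after sevoflurane (SD, n = 5) and 0.667 ± 0.816 in controls (SD, n = 6). MAGI1, a scaffold with inverted domain order, had a peak in 4 of 5 sevoflurane and 1 of 6 control animals (Fisher's exact p = 0.0801, adjusted p = 0.606). DLG5, the more distant junctional relative, had one in 3 and 1 (Fisher's exact p = 0.242, adjusted p = 0.635). MPP7 and PALS1, which act in epithelial polarity, had one in 1 sevoflurane animal each, and the tight junction scaffold TJP1 in 1 control.

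Of 30 postsynaptic density partners 17 had a peak and 8 were tested. Of the tested genes 0 passed in either direction, against 1.82% and 0% of all genes tested. After sevoflurane 6 were higher and 2 lower, with a median difference of 28.3 percentage points. The sevoflurane animals had 7 to 10 of the 30 partners (8.4 ± 1.34, SD, n = 5). The controls had 3 to 7 (5.17 ± 2.04, SD, n = 6), so the groups meet at 7. AGAP2, a GTPase-activating protein of the density, had a peak in 3 of 5 sevoflurane and 0 of 6 control animals (Fisher's exact p = 0.0606), the same counts as DLGAP3. The kinase gene MINK1 had one in 4 and 1 (Fisher's exact p = 0.0801), and BAIAP2, which encodes the actin regulator IRSp53, in 4 and 2 (Fisher's exact p = 0.242). CNKSR2, a scaffold bound by PSD-95, had one in 5 and 4, IQSEC2, an Arf exchange factor, in 2 and 1, and ADAM22, the receptor of LGI1, in 1 and 3 (Fisher's exact p at least 0.455). The adjusted p of these 6 ran from 0.606 to 0.901. Some partners had peaks in all animals, among them, picked after their values were seen, SHANK1 and DYNLL2 in 5 of 5 sevoflurane and 6 of 6 control animals.

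Of 26 receptors and channels that bind DLG scaffolds 10 had a peak and 4 were tested. Of the tested genes 0 passed in either direction, against 1.82% and 0% of all genes tested. After sevoflurane 3 were higher and 1 lower, with a median of 6.67 percentage points. Genes of this list with a peak numbered 1.6 ± 1.14 per sevoflurane animal (SD, n = 5). In controls there were 1.67 ± 1.97 per animal (SD, n = 6), and C3 alone held 5. Without C3 the controls had 1.0 ± 1.22 (SD, n = 5), so which group is higher turns on that animal. GRIK5, a kainate receptor subunit, had a peak in 2 of 5 sevoflurane and 0 of 6 control animals (Fisher's exact p = 0.182), and GRIA1, an AMPA receptor subunit, in 0 and 2 (Fisher's exact p = 0.455). GRIN1, the obligatory NMDA receptor subunit, and GRIN2C had one in 1 sevoflurane animal each, and GRIA2 and the neuregulin receptor gene ERBB4 in 1 control each. Beside the 23.3 points of all tested genes, the medians were 53.3 for the other guanylate kinases, 28.3 for the partners and 6.67 for the receptors, as a description only.

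The genes most like each member in the animals that had a peak were found by the Jaccard index over the 11 animals, the number of animals with both divided by the number with either. For DLG3 these were N4BP3, DNMT3A and DCTN3 at 1.0, then DDX54 and PLXNA1 at 0.833 (5 sevoflurane and 1 control animal each). They are 5 of 10 genes at 0.833 or above. For DLGAP3 they were ADCY3, PPP1R13B, PCDH17, PCDH10 and SNX1, all at 1.0 and 5 of 8 genes with the same 3 animals. For DLGAP1 they were SCAF1 and PPM1B at 0.889, LENG8 at 0.875, and NACC2 and KIF3B at 0.8, which are 5 of 12 genes at 0.8 or above. With 11 animals such matches are few in kind and are given as a description.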

How the data were processed

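m6A was measured by antibody capture of fragmented total RNA and stranded sequencing, per the labels' protocols. HISAT2 2.1.0, StringTie, cutadapt, Trim Galore 0.5.0 and the rheMac8 build appear in the submitters' processing notes. Which peak caller was run, and whether it used the input, is not given in the sources used here. The deposited lists, 1 per animal, give for each peak a p-value, log10 scores of the p-value and of the false discovery rate, and a fold enrichment (a ratio), per the file headers. The p-values were at most 0.001, the false discovery rates at most 0.0468 and the fold enrichments at least 2.06. Starts count from 0, so 1 was added.

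The members, lists and tests were chosen with earlier results of these data known. A member had a peak where the list placed at least 1 in its Ensembl gene, versions removed, and 3485 of 3671 genes matched a symbol. Regions join peaks whose exonic blocks share at least 1 bp on a strand. Presence was compared with two-sided Fisher's exact tests over genes or regions in 2 to 9 animals, with Benjamini-Hochberg adjustment (Python 3.11.15, scipy 1.17.1), tested on simulated data. Each label names a separate animal. Percentiles and ranks are within a list. Named were the 8 members, up to 6 genes of each other list with the largest difference in the share of animals, and up to 5 genes most like each member by Jaccard index, ties by the median percentile of enrichment. A list member that this rule takes is not reported here. Alternative settings used a stricter p-value, equal list length, the annotated gene, 50% reciprocal overlap, autosomes, no filter on animals, strata by sex and naming style, an odds factor per animal, a replicate block, and leaving out each animal. Leaving out DLGAP1 and the group values without C3 were chosen after seeing the data. Animals of both groups share the numbers 1 to 3, which mark no shared animal.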

Additional observations from a re-analysis of the deposited data

Results flagged for a closer look

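In groups of 4 to 10 animals, the highest or lowest value was compared with Dixon's 95% critical value, and chance flags about 1 in 20 such groups. Of the values behind the family, the control C3 stood apart from the other 5 controls in the length of its list, with 1210 peaks against 452 to 703, and in genes with a peak, 1050 against 407 to 642. C3 also stood apart in peaks with a fold enrichment in the range of the DLG3 peaks, 203 against 47 to 69. The control C1 stood apart with 0% of its genes with a peak in the family, against 0.156 to 0.222% in the other controls. The DLG3 peak of the sevoflurane animal S3 stood apart with 3477 bp to the annotated 3' end, against 2128 to 2188 bp in D, F, S1 and S2. The DLGAP1 peak of the control A stood apart with a length of 361 bases, against 151 to 181 bases in the controls B, C, C2 and C3.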

How the results depend on the processing

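The family had 1 member, DLG3, commoner after sevoflurane by the unadjusted Fisher's exact p. The count was 0 at a p-value of at most 1e-05 per peak, 0 with lists of equal length and 0 on autosomes only, which leave out DLG3 by construction. It was 1 to 2 without 1 animal, with 2 without F or without S3, where DLGAP3 joined. The same count over regions was 0 at the stricter p-value and 1 to 2 without 1 animal, again 2 without F or S3. The difference in members with a peak per animal, 1.4, was 0.133 with lists of equal length, 2.5 in males alone, 0.667 in females alone and 1.0 to 1.75 without 1 animal. It was 1.6 without C3. Over all genes the count of 27 was 10 at the stricter p-value, 4 with equal length, 4 with an odds factor per animal and 31 to 85 without 1 animal. Without D, F, S1, S2, S3 or C3 it was 55, 56, 85, 46, 69 or 59, though smaller groups by themselves move the counts that pass. Over all regions the 19 were 11 at the stricter p-value and 22 to 68 without 1 animal, with 38, 42, 68, 32, 62 or 43 for those 6. With a replicate block over the 3 numbered pairs the count of members was 0, since 3 pairs allow no p below 0.25. Same-numbered animals correlated at 0.0628, 0.000159 and 0.0234 over 1486 genes, and animals of unlike number at -0.0826 to 0.0594. These values are too few to show whether the numbers pair animals. The annotated gene, 50% overlap, strata by sex or naming style, the odds factor and no filter moved no call of a member. For DLG3 the strata gave the smallest p that they allow. Depth and input were not analysed here, and whether the DLG3 difference is one of detection or of methylation was not tested.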
